A study of Mus musculus with 9 samples.

Results

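The 10 Wnt ligands Wnt10a, Wnt4, Wnt6, Wnt7b, Wnt7a, Wnt3a, Wnt2, Wnt5a, Wnt5b and Wnt11 were read in the esophagus of newborn mice. These 10 are a part of the Wnt family and were chosen with earlier results of these data known. Of the other Wnt ligands 7 were measured and 0 called, and they are counted below among the pathway genes. The 10 ligands were found as all non-control probes that the array files name by these symbols. This gave 13 probes of 41174, or 10 genes of 28099. All 10 genes and all 13 probes passed the filter on dim probes, so no member was lost. Wnt6, Wnt5a and Wnt5b had a second probe, and the brightest probe of a gene stands for it below unless the other is named.

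RNA came from mice of 3 genotypes at P0 (postnatal day 0), all on the C57BL/6J background. The p63KO/Villin-Cdx2 mice lacked p63 and carried a transgene in which Cdx2, a transcription factor of the intestinal epithelium, is named with Villin, a gene of the intestinal brush border (n = 2 in the series, although the labels number these samples out of 3). The p63KO mice lacked p63, the product of Trp63 and a transcription factor that stratified squamous epithelium needs (n = 3), and WT mice served as the control (n = 4). On each 2-colour array the sample carried Cy5, and a Cy3 reference pooled from 11 mouse cell lines lay beside it, with no dye swap. Values are log2 ratios of sample over that pool, which can be compared between genotypes for 1 probe but not between probes.

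Wnt proteins are lipid-modified secreted signals. Their canonical branch acts through Frizzled receptors and LRP co-receptors to stabilise β-catenin, which then activates TCF/LEF target genes, while other branches steer cell polarity and movement. In the foregut, Wnt signals pass in both directions between the epithelium and the mesenchyme around it, and in skin several ligands are made by the basal keratinocytes themselves.

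The arrays detected 30021 to 33243 probes above background in the Cy5 channel. The median signal over all probes was 316.1 and 331.1 intensity units in p63KO/Villin-Cdx2, 342.2 to 392 in p63KO and 249.5 to 303.4 in WT. Every WT array was thus dimmer than every knockout array. The arrays of a genotype shared 1 slide and 1 scan, and no slide held 2 genotypes, so slide effects and genotype effects cannot be told apart. One label of WT replicate 4 names the knockout, whereas its title and genotype name WT. The brightest Trp63 probe had log2 ratios of 3.37 and 3.09 in p63KO/Villin-Cdx2, 2.74, 2.73 and 2.73 in p63KO, and 3.52, 3.78, 3.39 and 4.13 in WT. It read lower on every knockout array than on every WT array, but no difference of log ratios from WT was called (adjusted p = 0.239 for p63KO/Villin-Cdx2 and 0.0742 for p63KO, limma). In the Cy5 sample channel the same probe was called lower in p63KO, by -1.19 (SE 0.16, adjusted p = 0.0101, limma). It was not called there in p63KO/Villin-Cdx2, at -0.79 (SE 0.18, adjusted p = 0.0681). Another Trp63 probe, also well above background on all 9 arrays, ran the other way, with 1.43 and 1.13 in p63KO/Villin-Cdx2, 0.72, 0.83 and 0.74 in p63KO, and 0.29, 0.39, 0.16 and 0.73 in WT. The labels do not say which part of the gene was deleted, so these probes do not settle whether the arrays match their genotype labels. The Cdx2 probe was well above background on 0 of the 9 arrays, the transgenic ones included.

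The labels call the cell type epithelium, while the RNA was extracted from esophageal tissue, and all 6 fibroblast markers were well above background on all 9 arrays. The log2 of their summed sample signal was 19.55 to 19.79 in p63KO/Villin-Cdx2, 19.86 to 20.09 in p63KO and 19.80 to 20.04 in WT. Thyroid markers differed widely within genotypes. Their log2 summed signal was 8.90 and 12.57 in p63KO/Villin-Cdx2, 13.04, 16.22 and 16.41 in p63KO, and 8.75, 8.95, 17.62 and 16.94 in WT.

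The probes behind the 3 ligands that passed a test are shown as the array files list them, 5′ to 3′, to say which stretch of each transcript was measured. The Wnt10a probe lies at chr1:74850633-74850692 (mm9, plus strand) and only its first 30 bases are given. The Wnt4 probe covers 60 bases of transcript but 569 bases of genome at chr4:136851690-136852258 (mm9, plus strand), so it reads across a splice junction. The brightest Wnt6 probe lies at chr1:74831461-74831520 (mm9, plus strand), and capitals in its last 30 bases mark AATAAA, the usual polyadenylation signal.
Wnt10a: tttcacttaacagatatttatttttgcgct
Wnt4: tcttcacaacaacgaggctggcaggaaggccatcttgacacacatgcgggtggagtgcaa
Wnt6: gtttagtatcAATAAAgacatttaaatcca

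The Wnt6 and Wnt10a probes lie 19.1 kb apart on chromosome 1, and these genes are neighbours in the mouse genome. Promoter sequence (RefSeq, GRCm38.p6) was at hand for 7 of the 10 ligands, in 10 windows of 300 bases. Because Wnt4 and Wnt6 were lower in the same arrays, the 120 bases before their start sites are shown, Wnt4 at chr4:137277515-137277634 and Wnt6 at chr1:74771772-74771891, both on the plus strand, with each CG in capitals.
Wnt4: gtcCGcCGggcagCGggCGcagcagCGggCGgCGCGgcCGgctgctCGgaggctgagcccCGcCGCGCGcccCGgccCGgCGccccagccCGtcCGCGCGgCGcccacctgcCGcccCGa
Wnt6: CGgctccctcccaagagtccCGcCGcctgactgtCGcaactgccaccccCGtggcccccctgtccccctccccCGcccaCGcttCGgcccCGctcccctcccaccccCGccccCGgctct

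Both stretches are rich in G and C, at 88.3% for Wnt4 and 78.3% for Wnt6, against a median of 54.2% over the same stretch of all promoters. Wnt4 holds 24 CG pairs there, a number that 0.575% of promoters reach, and Wnt6 holds 11, which 20.2% reach. The letters CATG, the core letters of p53-family sites, occur once in the 300-base Wnt4 window, 45 bases after the start, and not in that of Wnt6. They occur in 61.1% of all windows. Neither CTTTGA (in 16% of windows) nor CTTTGT (in 18.7%), which are core letters of TCF/LEF sites, occurs in these 2 windows on either strand.

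Wnt10a, Wnt4 and Wnt6 were the ligands that set the genotypes apart. Wnt10a and Wnt4 were lower by 2.32 to 3.69-fold in both knockout genotypes than in WT, Wnt6 passed the test only for p63KO/Villin-Cdx2 against WT, and no ligand was called higher in any comparison. The plot of log2 ratios by array shows the brightest probes of these 3 genes lower on every knockout array than on every WT array. Of all genes, 4.58% in p63KO and 13.8% in p63KO/Villin-Cdx2 lay below WT without overlap, each counted on its own. On the other Wnt6 probe p63KO overlapped WT. The other 7 ligands overlapped between p63KO and WT, while Wnt5a lay below WT on both transgenic arrays.

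**Figure D1:**
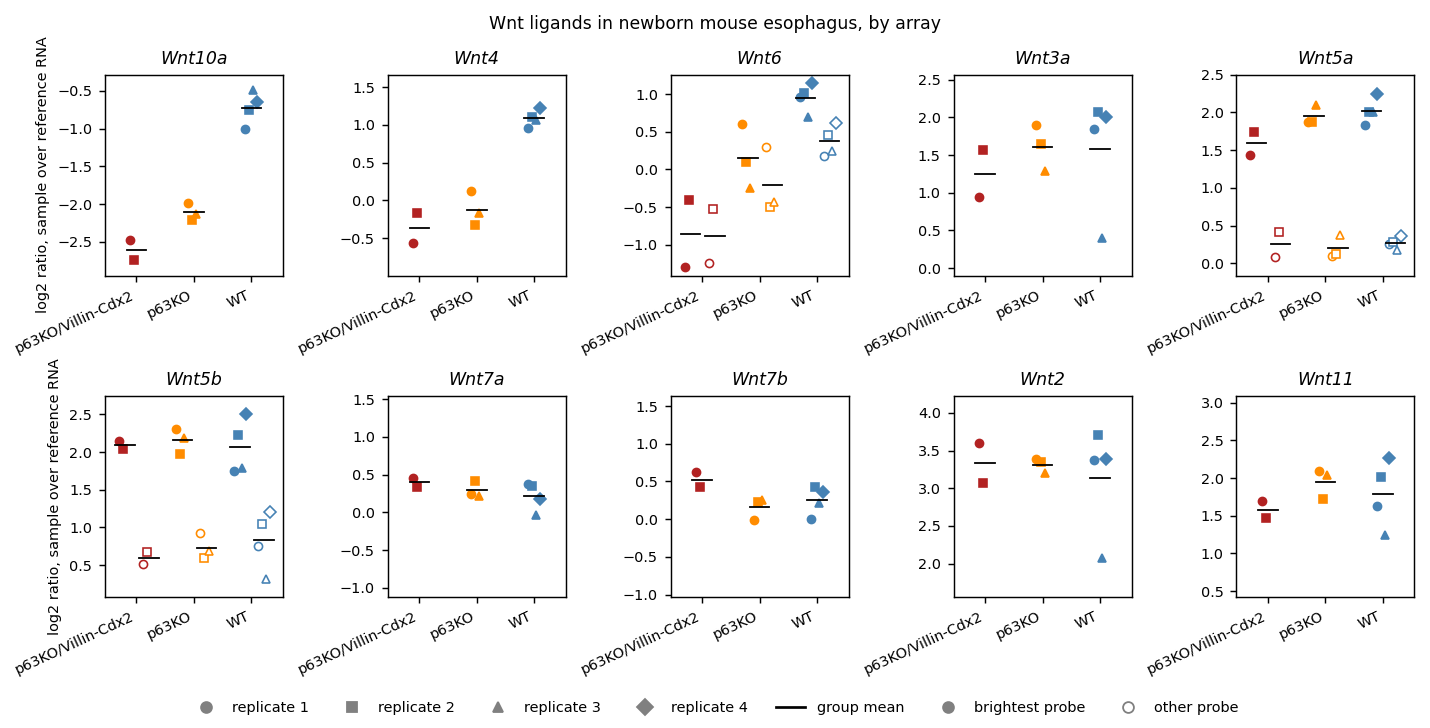
Log2 ratio of sample over reference RNA (y axis) for the 10 Wnt ligands on each of the 9 arrays, by genotype (x axis). Marker shapes are replicates, filled markers the brightest probe, open markers the other probe and black lines group means, and every panel spans the same height. The p63KO/Villin-Cdx2 and p63KO arrays lie below all WT arrays for Wnt10a, Wnt4 and the brightest Wnt6 probe.

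Wnt10a is made by skin and tooth epithelium, and its loss causes ectodermal dysplasia with defects of teeth, skin and hair. Its log2 ratios were -2.47 and -2.74 in p63KO/Villin-Cdx2, -1.98, -2.21 and -2.13 in p63KO, and -1.0, -0.75, -0.49 and -0.64 in WT. The 3 genotypes did not overlap, with the transgenic arrays lowest. Lower values without overlap in p63KO/Villin-Cdx2 than in p63KO were found for 18% of all genes, and Wnt10a was not called there. The means were -2.61 ± 0.19 (SD, n = 2), -2.11 ± 0.12 (SD, n = 3) and -0.72 ± 0.21 (SD, n = 4) in the same order of genotypes.

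Wnt4, a ligand of kidney and gonad development that basal keratinocytes of skin also make, had log2 ratios of -0.56 and -0.17 in p63KO/Villin-Cdx2, 0.12, -0.33 and -0.17 in p63KO, and 0.96, 1.10, 1.06 and 1.23 in WT. All knockout arrays lay below all WT arrays, and both knockout genotypes overlapped each other. Group means were -0.37 ± 0.28 (SD, n = 2), -0.13 ± 0.23 (SD, n = 3) and 1.09 ± 0.11 (SD, n = 4).

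Wnt6 is a ligand of the surface ectoderm and of other embryonic epithelia. Its brightest probe had log2 ratios of -1.30 and -0.40 in p63KO/Villin-Cdx2, 0.60, 0.10 and -0.24 in p63KO, and 0.96, 1.01, 0.69 and 1.15 in WT. The genotypes did not overlap. The transgenic arrays lay below p63KO, as they did for 18% of all genes, and Wnt6 was not called there. Arrays within each knockout genotype lay further apart than for Wnt10a or Wnt4. The SD was 0.64 (n = 2) in p63KO/Villin-Cdx2, 0.42 (n = 3) in p63KO and 0.19 (n = 4) in WT. The other Wnt6 probe read -1.24 and -0.53 in p63KO/Villin-Cdx2, 0.30, -0.50 and -0.43 in p63KO, and 0.18, 0.46, 0.25 and 0.61 in WT, so p63KO replicate 1 overlapped WT on that probe.

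The comparison of p63KO with WT addresses which ligands differ when p63 is lost. Of the 10 ligands 2 were called lower (limma, Benjamini-Hochberg adjusted p under 0.05 over 22642 genes) and 0 higher, where 0.269% of all genes were called lower and 0.0574% higher. The median difference of the ligands was -0.02, against 0.02 for all genes. Wnt10a was lower by a log2 difference of -1.39 (SE 0.13, adjusted p = 0.00629), or 2.61-fold, and Wnt4 by -1.22 (SE 0.14, adjusted p = 0.0103), or 2.32-fold.

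For Wnt6 the difference was -0.79 (SE 0.25, adjusted p = 0.45), which missed the threshold although the arrays did not overlap. Groups without overlap and with p63KO lower were found for 3 ligands, and for 4.58% of all genes. On its other probe the Wnt6 difference was -0.59 (SE 0.24, adjusted p = 0.61). The Wnt10a call held when each array was left out in turn, with adjusted p of at most 0.0497. The Wnt4 call was lost without p63KO replicate 2 (difference -1.11, adjusted p = 0.0644), without p63KO replicate 3 (-1.19, 0.0747) and without WT replicate 2 (-1.21, 0.0556), while it held without WT replicate 4, whose labels conflict. In a fit without the 4 arrays highest in thyroid markers, chosen after seeing the data, 2 p63KO/Villin-Cdx2, 1 p63KO and 2 WT arrays remained. The differences were then -1.10 for Wnt10a (adjusted p = 0.463) and -0.91 for Wnt4 (adjusted p = 0.581). In bulk tissue, fewer cells of a type and less RNA per cell cannot be told apart.

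The comparison of p63KO/Villin-Cdx2 with WT adds the transgene to the loss of p63. Of the 10 ligands 3 were called lower and 0 higher, with 0.972% of all genes called lower and 0.433% higher. Wnt10a was lower by a log2 difference of -1.88 (SE 0.15, adjusted p = 0.00238), or 3.69-fold, Wnt4 by -1.45 (SE 0.15, adjusted p = 0.00859), or 2.74-fold, and Wnt6 by -1.80 (SE 0.29, adjusted p = 0.0334), or 3.49-fold. These calls share the WT arrays with those of p63KO against WT and are no independent repeat of them.

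The Wnt6 call was the least firm of these. It was lost without p63KO/Villin-Cdx2 replicate 1 (difference -1.35, adjusted p = 0.125), without p63KO replicate 2 (0.0627) or 3 (0.0518), and without WT replicate 1 (0.0706), 2 (0.105) or 4 (0.0958). The other Wnt6 probe gave -1.26 (SE 0.27, adjusted p = 0.0654) in the same comparison, in the same direction. Without the 4 arrays highest in thyroid markers the differences were -1.73 for Wnt10a (adjusted p = 0.211), -1.39 for Wnt4 (adjusted p = 0.235) and -1.83 for Wnt6 (adjusted p = 0.291), of like size and not called. Wnt5a also lay below WT on both transgenic arrays, at a difference of -0.43 (SE 0.14, adjusted p = 0.158), which missed the threshold. With these 4 ligands the p63KO/Villin-Cdx2 arrays lay below all WT arrays, as they did for 13.8% of all genes.

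Against p63KO, the p63KO/Villin-Cdx2 arrays showed 0 ligands called, as for 0% of the 22641 genes tested, where the lowest adjusted p was 0.215. At an unadjusted p under 0.05 there were 4 ligands, against 11.4% of all genes. Wnt6 differed by -1.01 (SE 0.30, 95% confidence interval -1.70 to -0.31, adjusted p = 0.363). Wnt10a differed by -0.50 (SE 0.16, interval -0.86 to -0.14, adjusted p = 0.371). Wnt5a differed by -0.36 (SE 0.15, adjusted p = 0.415) and Wnt7b by 0.36 (SE 0.15, adjusted p = 0.421). For Wnt4 the interval ran between -0.61 and 0.13, so a change of the size seen against WT lies outside it.

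**Figure D2:**
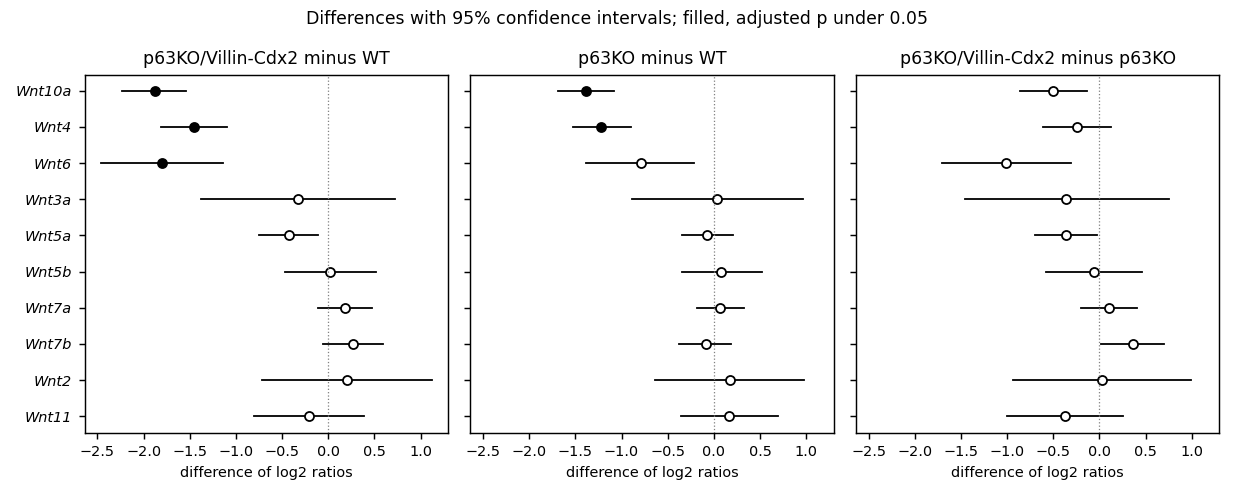
Difference of mean log2 ratios (x axis) for the 10 Wnt ligands (y axis) in each of the 3 comparisons, with 95% confidence intervals as bars and filled points where the adjusted p is under 0.05. Wnt10a and Wnt4 are filled in both comparisons with WT, Wnt6 for p63KO/Villin-Cdx2 against WT, and none in the comparison of the knockout genotypes.

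The sample channel, normalized together with the reference channel but not divided by it, gave the same 3 called genes. It is not independent of the log ratio. Wnt10a had log2 sample signals of 10.63 and 10.44 in p63KO/Villin-Cdx2, 11.04, 10.80 and 10.96 in p63KO, and 12.16, 12.42, 12.68 and 12.49 in WT. Those of Wnt4 were 9.18 and 9.66, then 9.78, 9.40 and 9.53, then 10.85, 10.96, 11.07 and 11.01 in the same order of genotypes. Both genes again lay below WT on every knockout array, as did 9.04% of all genes in p63KO and 14.1% in p63KO/Villin-Cdx2, each counted on its own.

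For p63KO against WT the sample channel differed by -1.50 for Wnt10a (SE 0.13, adjusted p = 0.00104) and by -1.40 for Wnt4 (SE 0.14, adjusted p = 0.00188), with 2 of 10 ligands and 0.98% of all genes called lower, and 0 ligands and 0.764% of all genes called higher. For p63KO/Villin-Cdx2 against WT, 3 of 10 ligands and 1.54% of all genes were called lower and 0 and 0.883% higher, Wnt10a by -1.90 (SE 0.15, adjusted p = 0.000828), Wnt4 by -1.55 (SE 0.16, adjusted p = 0.00323) and Wnt6 by -2.17 (SE 0.31, adjusted p = 0.0139). In the comparison of both knockout genotypes 0 ligands were called, against 0.186% of all genes lower and 0.0398% higher, and Wnt6 differed by -1.29 (SE 0.33, adjusted p = 0.138).

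The reference pool is the same RNA on every array, yet its channel did not stay level for every probe. For 7 suprabasal squamous markers the median difference of p63KO from WT was -2.17 in the log ratio and -4.02 in the sample channel. For 7 basal markers it was -0.98 and -2.55. Where the reference channel follows the sample, the log ratio is smaller than the sample difference. The cause was not tested. For Wnt10a the reference channel spanned 13.02 to 13.18 over all 9 arrays. For Wnt6 it was 10.28 and 10.21 in p63KO/Villin-Cdx2, 10.60, 10.53 and 10.47 in p63KO, and 10.58, 10.57, 10.60 and 10.72 in WT, lower on the arrays where the sample was lowest. That difference between the knockout genotypes, -0.28 (SE 0.06, adjusted p = 0.0323), was called, as were 3.16% of all genes in that channel and direction. It makes the Wnt6 log ratio differ by less than the sample channel does.

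**Figure D3:**
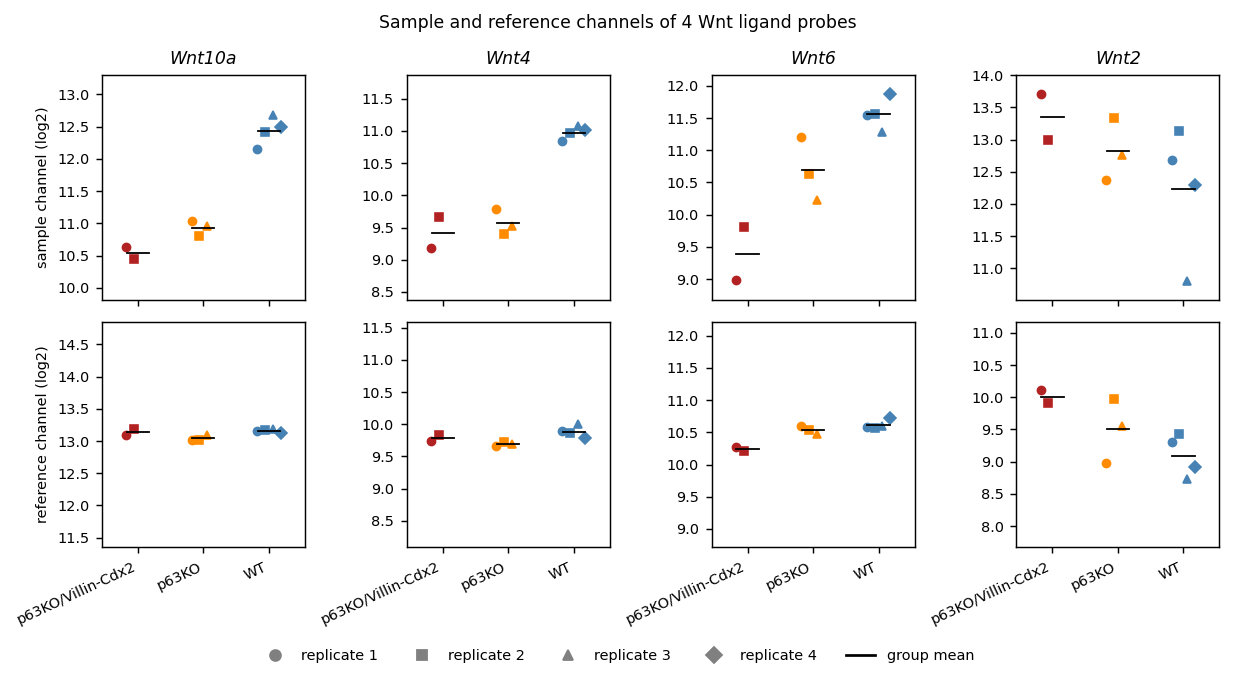
Log2 signal of the sample channel (top row) and the reference channel (bottom row) on each array, by genotype, for the brightest probes of Wnt10a, Wnt4, Wnt6 and Wnt2. Shapes are replicates, lines are group means, and all panels span the same height. The Wnt10a reference signal stays within 13.02 to 13.18, while that of Wnt2 spans 8.73 to 10.11.

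Wnt7b, Wnt7a and Wnt3a were not called in any comparison. Wnt7b, a ligand of lung and kidney epithelium, had log2 ratios of 0.62 and 0.42 in p63KO/Villin-Cdx2, -0.01, 0.23 and 0.25 in p63KO, and 0.00, 0.43, 0.21 and 0.36 in WT. The transgenic arrays lay above p63KO, as they did for 14% of all genes, and overlapped WT. Wnt7a, which patterns the limb and the female reproductive tract, read 0.46 and 0.34 in p63KO/Villin-Cdx2, 0.25, 0.41 and 0.22 in p63KO, and 0.38, 0.35, -0.03 and 0.18 in WT. All 3 genotypes overlapped, and the signal was dim in both channels. Its sample channel on WT replicate 3 did not stand well above background, nor did its reference channel on p63KO/Villin-Cdx2 replicate 2 and WT replicates 2, 3 and 4, so its ratios there rest on a reference signal near background.

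Wnt3a, a canonical ligand of the embryonic tail and body axis, read 0.94 and 1.57 in p63KO/Villin-Cdx2, 1.90, 1.65 and 1.29 in p63KO, and 1.85, 2.07, 0.40 and 2.01 in WT. WT replicate 3 was the lowest of all 9 arrays. The reference channel was not well above background for Wnt3a on that array, on p63KO/Villin-Cdx2 replicate 1 and on p63KO replicate 3, the lowest array of each genotype. With WT replicate 3 included the interval for p63KO minus WT was wide, -0.89 to 0.96 around 0.03 (adjusted p = 0.989), and without it the difference was -0.36 (adjusted p = 0.652).

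The ligands known from mesenchyme, Wnt2, Wnt5a, Wnt5b and Wnt11, were not called either. Wnt2, which the foregut mesenchyme makes and which specifies the lung, read 3.60 and 3.07 in p63KO/Villin-Cdx2, 3.39, 3.35 and 3.20 in p63KO, and 3.38, 3.71, 2.08 and 3.39 in WT. The genotypes overlapped and WT replicate 3 was again the lowest array. Its differences were 0.20 (SE 0.40, adjusted p = 0.846) for p63KO/Villin-Cdx2 against WT and 0.17 (SE 0.35, adjusted p = 0.923) for p63KO against WT. The Wnt2 reference channel was uneven, with means of 10.01 in p63KO/Villin-Cdx2, 9.51 in p63KO and 9.09 in WT. It was lowest and highest on the same arrays as the sample channel, WT replicate 3 and p63KO/Villin-Cdx2 replicate 1. The sample channel differed by 1.11 (SE 0.59, adjusted p = 0.33) for p63KO/Villin-Cdx2 against WT.

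Wnt5a, the main ligand of the non-canonical branch in gut mesenchyme, read 1.44 and 1.74 in p63KO/Villin-Cdx2, 1.88, 1.88 and 2.10 in p63KO, and 1.83, 2.00, 2.00 and 2.25 in WT. The transgenic arrays were the lowest, and they lay below p63KO for 18% of all genes too. The p63KO arrays overlapped WT, with an interval of -0.35 to 0.21 for the difference. On its other probe, which spans 3963 bases of genome, the ratios were 0.09 and 0.41, then 0.10, 0.12 and 0.38, then 0.26, 0.28, 0.17 and 0.36 in the same order, and all genotypes overlapped. The difference of p63KO/Villin-Cdx2 from WT was -0.01 (SE 0.12, adjusted p = 0.972) there, so the other probe did not show the lower value. That probe was dim, with log2 sample signals of 7.02 to 7.47 against 11.56 to 12.33 for the brightest. The offset of the background correction makes ratios of dim probes smaller, so it cannot decide whether the lower value holds.

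Wnt5b, a close relative of Wnt5a that acts in cartilage, read 2.15 and 2.04 in p63KO/Villin-Cdx2, 2.30, 1.97 and 2.19 in p63KO, and 1.75, 2.23, 1.79 and 2.51 in WT. Both knockout genotypes lay inside the WT range. Wnt11, a non-canonical ligand of cell movement, read 1.69 and 1.47 in p63KO/Villin-Cdx2, 2.09, 1.72 and 2.04 in p63KO, and 1.63, 2.01, 1.25 and 2.27 in WT, again with WT replicate 3 as the lowest array. Its difference between p63KO/Villin-Cdx2 and p63KO was -0.37 (SE 0.27, adjusted p = 0.628), with no overlap between these 2 genotypes, and 18% of all genes were lower without overlap there.

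Of 93 other genes of the Wnt pathway, 88 were measured and 1 was called in any comparison of log ratios. That gene was Ptk7, a co-receptor of the planar polarity branch, which was higher in p63KO/Villin-Cdx2 than in WT, where 1.4% of all genes were called in either direction. Its log2 ratios were 0.78 and 0.63 in p63KO/Villin-Cdx2, 0.47, 0.46 and 0.34 in p63KO, and 0.16, 0.29, 0.22 and 0.25 in WT. The difference from WT was 0.48 (SE 0.08, adjusted p = 0.045). It was lost without any 1 of 8 arrays, with adjusted p between 0.0557 and 0.197, and kept only without p63KO replicate 1 (0.0486).

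The remaining lists held 0 calls in the log ratios, with 0.327% of all genes called for p63KO against WT. At an unadjusted p under 0.05 there were 8 of the 88 genes for p63KO/Villin-Cdx2 against p63KO (11.4% of all genes), 11 for p63KO/Villin-Cdx2 against WT (18.1%) and 9 for p63KO against WT (7.79%). Their medians lay between -0.12 and 0.08 for p63KO/Villin-Cdx2 against WT and, apart from the secreted antagonists at 0.33, between -0.04 and 0.06 for p63KO against WT. Among the 7 other Wnt ligands measured, Wnt3 had the lowest p for p63KO against WT, at 0.37 (SE 0.09, adjusted p = 0.282). Porcn, the enzyme that attaches the lipid to Wnt proteins, differed by -0.39 (SE 0.10, adjusted p = 0.362) between p63KO/Villin-Cdx2 and p63KO. Lgr4, a receptor of R-spondins, differed from WT by -0.55 (SE 0.18, adjusted p = 0.165) in p63KO/Villin-Cdx2 and by -0.40 (SE 0.16, adjusted p = 0.592) in p63KO.

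Feedback targets of the canonical branch did not pass either. Apcdd1, a membrane inhibitor of Wnt signalling, had log2 ratios of 0.98 and 1.14 in p63KO/Villin-Cdx2, 0.91, 1.05 and 1.50 in p63KO, and 1.62, 1.79, 1.85 and 1.99 in WT. All knockout arrays lay below WT, at differences of -0.75 (SE 0.17, adjusted p = 0.0751) and -0.66 (SE 0.15, adjusted p = 0.218). Of all genes, 13.8% in p63KO/Villin-Cdx2 and 4.58% in p63KO lay below WT without overlap, each counted on its own. Axin2, the most general target, overlapped between all genotypes at 2.26 and 1.73, then 1.92, 1.87 and 1.83, then 1.58, 1.99, 1.15 and 1.88. It was picked after its values were seen. In the sample channel alone, Celsr2 of the planar polarity branch was called lower in p63KO than in WT, by -0.63 (adjusted p = 0.0328), with 1.74% of all genes called there. That call held in 3 of the 9 fits that left out an array, with adjusted p up to 0.133 in the others. Ptk7 was the only pathway gene called in that channel for p63KO/Villin-Cdx2 against WT, with 2.42% of all genes, and 0 were called between the knockout genotypes, with 0.225%.

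**Figure D4:**
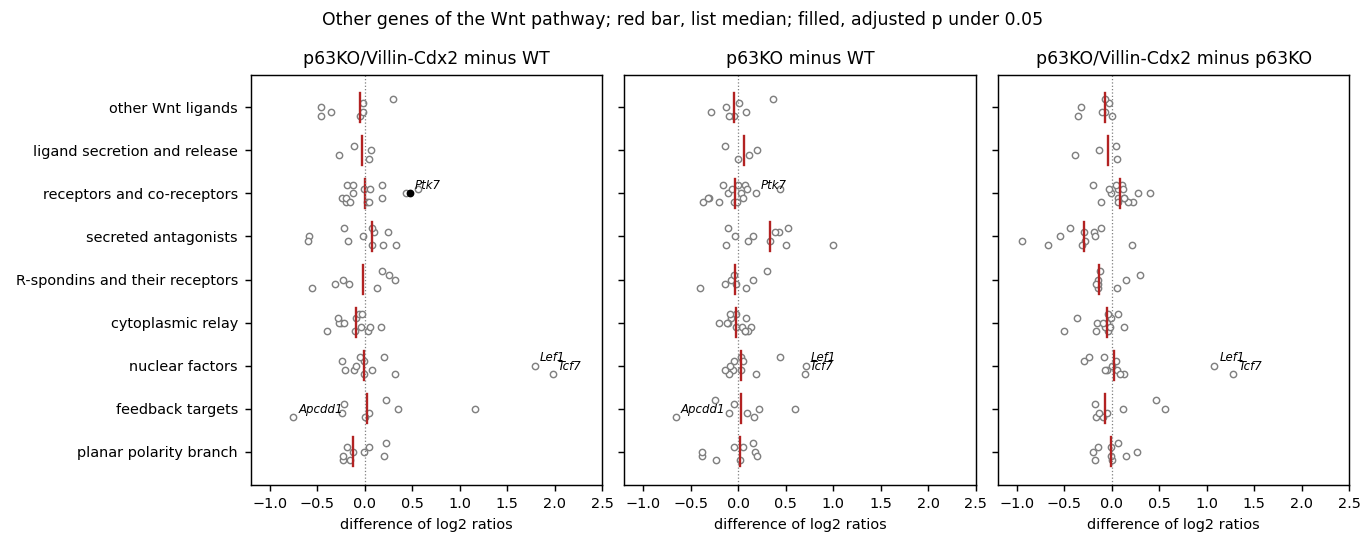
Difference of log2 ratios (x axis) for 88 other measured genes of the Wnt pathway, by list (y axis), in each of the 3 comparisons. Each circle is a gene, red bars are list medians, and the filled circle is Ptk7, the only gene with adjusted p under 0.05, at 0.48. Lef1 and Tcf7 lie furthest to the right, at 1.79 and 1.98 against WT for p63KO/Villin-Cdx2.

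The widest spread was that of Lef1 and Tcf7, transcription factors of the canonical branch that T cells also make. Lef1 had log2 ratios of -1.15 and 0.75 in p63KO/Villin-Cdx2, -1.35, -1.18 and -1.30 in p63KO, and -2.38, -1.91, -1.72 and -1.96 in WT. Tcf7, picked after its values were seen, had -1.37 and 1.07, then -1.57, -1.28 and -1.46, then -2.12, -2.03, -2.19 and -2.19. The transgenic replicate 2 was the highest array for both genes, and its summed signal of 5 immune markers was also the highest of the 9, at a log2 of 13.04 against 11.63 to 12.57 elsewhere. The part of immune cells in this was not tested.

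Against WT, Lef1 differed by 1.79 (SE 0.43, adjusted p = 0.0884) in p63KO/Villin-Cdx2, by 0.84 (adjusted p = 0.122) without its replicate 2, and by 2.74 (adjusted p = 0.00247) without its replicate 1. Tcf7 differed by 1.98 (SE 0.53, adjusted p = 0.109), by 0.76 (adjusted p = 0.0575) and by 3.20 (adjusted p = 0.000695) in the same fits. In that comparison 1 array decided the size of both values. For p63KO against WT, Lef1 differed by 0.71 (adjusted p = 0.714) and Tcf7 by 0.70 (adjusted p = 0.767). Without either transgenic array, which leaves these differences as they are, Tcf7 was called (adjusted p = 0.0278) and Lef1 was not (adjusted p = 0.169).

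Squamous epithelium and smooth muscle markers were lower on the same arrays as Wnt10a, Wnt4 and Wnt6. The log2 of the summed signal of 7 basal markers, all well above background on every array, was 15.68 to 15.89 in p63KO/Villin-Cdx2, 15.64 to 16.07 in p63KO and 18.03 to 18.34 in WT. That of 7 suprabasal markers was 10.99 to 12.17, 11.84 to 12.14 and 15.70 to 16.06. In the log ratio 2 of 7 basal and 5 of 7 suprabasal markers were called lower in p63KO than in WT, and 3 and 7 in p63KO/Villin-Cdx2 than in WT, where 0.269% and 0.972% of all genes were called lower. In the sample channel the counts were 6 and 7 in p63KO, with 0.98% of all genes, and 5 and 7 in p63KO/Villin-Cdx2, with 1.54%. The basal markers were Krt5, Krt14, Krt15, Col17a1, Itga6, Itgb4 and Trp63. Trp63 is the targeted gene itself and was among the 6 called in the sample channel in p63KO. The log2 summed signal of 5 smooth muscle markers was 17.60 to 17.97 in p63KO/Villin-Cdx2, 17.85 to 17.96 in p63KO and 18.19 to 19.05 in WT, and 0 of the 5 were called in either quantity. The part of squamous and smooth muscle cell numbers in the ligand values was not tested.

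**Figure D5:**
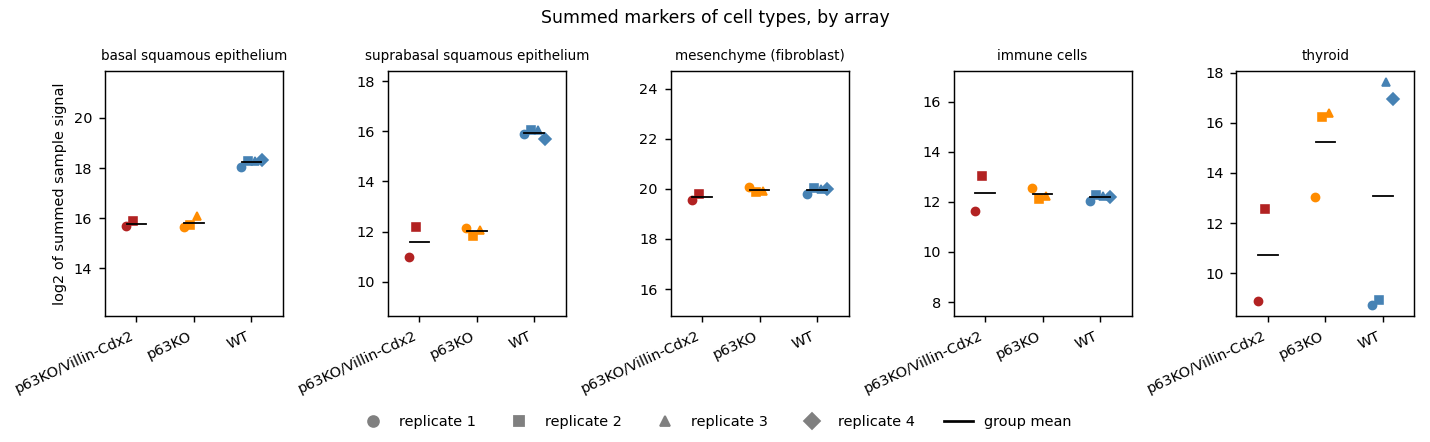
Log2 of the summed sample signal of 5 marker lists (y axis) on each array, by genotype (x axis), with shapes for replicates and lines for group means, and panels of equal height. Basal and suprabasal markers are lower on all knockout arrays than on all WT arrays, fibroblast markers lie within 19.55 to 20.09, and thyroid markers separate arrays within a genotype.

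Genes whose log ratios followed a called ligand most closely over the 9 arrays were ranked by Pearson's r among 19378 genes, as a description that rests largely on the gap between knockout and WT arrays. Closest to Wnt10a were Lrig3 (r = 0.994), Il1rn (0.987), Srprb (0.979), Col7a1 (0.977) and Capn1 (0.976). Closest to Wnt4 were Col7a1 (0.989), Duoxa1 (0.988), Krt14 (0.986), Lgals7 (0.986) and Eaf2 (0.984). Col7a1, the anchoring fibril collagen of squamous basement membranes, stood in both lists. Closest to Wnt6 were 2300002M23Rik (0.979), Dhrs3 (0.978), Pde1b (0.975), C77080 (0.975) and Ltbp4 (0.969).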

How the data were processed

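RNA from newborn mouse esophagus was read on 9 Agilent 2-colour arrays. The deposited files hold, per the file headers, mean spot intensity and local background intensity in both channels, written by Agilent Feature Extraction 10.7.3.1 (version 9.1 per the submitters' processing notes). The software also wrote, per the file headers, a log10 ratio of Cy5 over Cy3 from background-subtracted and dye-normalized signals, used as an alternative. The authors' deposited value table holds log2 ratios, and its column medians differ between arrays, with the centring not given in the sources used here. Here 45018 spots per array were corrected by normexp (offset 50) and loess with control spots at weight 0, the channels were scaled by Aquantile, and outlier-marked spots were left out. A probe was kept where Cy5 signal stood well above background on 2 or more of 9 arrays (33750), and each of 22645 genes was read from its brightest probe. Names came from RefSeq (GRCm38.p6, names only) for 26918 probes by accession and 5908 by symbol, and 8348 kept the file's name. limma 3.58.1 in R 4.3.3 fitted 3 genotypes over 9 arrays, with eBayes and Benjamini-Hochberg adjustment at 0.05 in each comparison.

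All 10 ligands were described. From each pathway list up to 2 passing members per direction, or else the member with the lowest p, could be named. So could the 5 RefSeq-named genes most like each called ligand. The members, lists and tests were chosen with earlier results of these data known. Alternatives covered the normalization, filter, probe summary, variance prior, weights, arrays and groups. Fits were tested on simulated data. Same-numbered samples correlated at -0.13 to 0.19 after removal of group means, and other pairs across genotypes at -0.2 to 0.19. No pairing by replicate number was seen. So few arrays per genotype cannot exclude it, since removal of group means ties the arrays of a genotype to each other. The labels call samples biological replicates.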

Additional observations from a re-analysis of the deposited data

Results flagged for a closer look

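The Wnt3a log2 ratio of WT replicate 3, 0.40, lay far below those of the other 3 WT arrays (1.85 to 2.07). Its distance from the nearest of them, as a share of the WT range, was 0.868, above Dixon's 95% critical value for 4 samples. The reference channel was not well above background for Wnt3a on that array, so the value is a ratio against signal near background, and in the sample channel alone the share was 0.706, below the critical value. It was the only such value among 26 sets of 4 WT arrays, from 13 probes in the log ratio and the sample channel. Chance flags about 1 such set in 20.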

How the results depend on the processing

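Values are differences of log2 ratios, with the reported one in parentheses. Called directions held: none of the 5 called ligand differences changed sign under any alternative. Of 10 settings, not counting those that left out single arrays or the thyroid-rich arrays or used the sample channel, 9 kept each call of Wnt10a and Wnt4 and 8 that of Wnt6. The exceptions were the replicate block for all 3 and, for Wnt6, a fit of only the groups compared (adjusted p = 0.076). With the replicate block, 0 ligands were called for p63KO against WT and 0 for p63KO/Villin-Cdx2 against WT, and in the sample channel 1 and 0. Whether the replicate numbers pair the samples is not known. Over all genes the block gave 9 calls, against 74 without it, for p63KO against WT, and 8, against 318, for p63KO/Villin-Cdx2 against WT. These counts ran up to 214 with array weights and 544 with a trended, robust prior. With that block 0 pathway genes were called for p63KO/Villin-Cdx2 against WT. Without the 4 arrays high in thyroid markers, an alternative chosen after seeing the data, 0 ligands and 0 genes in all were called in both comparisons with WT. That fit leaves 1 p63KO array, assumed to vary like those of the other genotypes. The scanner's processed signals and the authors' table each called 1 pathway gene, Celsr2, for p63KO against WT, and 2, Celsr2 and Ptk7, for p63KO/Villin-Cdx2 against WT.

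Leaving out 1 array at a time called 1 to 2 ligands for p63KO against WT, 2 to 3 for p63KO/Villin-Cdx2 against WT and 0 to 0 between the knockout genotypes. In the sample channel the counts were 2 to 2, 2 to 3 and 0 to 0, and for pathway genes 0 to 2, 0 to 2 and 0 to 2.

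Ligands that were not called changed sign in 13 results, none larger than 0.36 in size. For p63KO minus WT, Wnt3a (0.03) became -0.07 with quantile scaling, -0.32 with array weights and in the sample channel, -0.06 without the thyroid-rich arrays, and spanned -0.36 to 0.19 with an array left out. Wnt5a (-0.07) became 0.01 with the replicate block and spanned -0.14 to 0.01 with an array left out. Wnt5b (0.08) became -0.17 with the scanner's signals or the authors' table, -0.08 with quantile scaling, -0.01 as a mean of probes, -0.07 with weights and -0.05 in the sample channel, and spanned -0.02 to 0.23. Wnt7a (0.07) became 0.00 with the scanner's signals or the authors' table and -0.11 without the thyroid-rich arrays, and spanned -0.01 to 0.12. Wnt7b (-0.09) became 0.04 in the sample channel. Wnt2 (0.17) became -0.04 with the scanner's signals or the authors' table, -0.09 with weights and -0.16 without the thyroid-rich arrays, and spanned -0.18 to 0.36. Wnt11 (0.16) became -0.06 with the scanner's signals or the authors' table, -0.02 with quantile scaling and -0.03 with weights, and spanned -0.02 to 0.32.

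For p63KO/Villin-Cdx2 minus p63KO, Wnt3a (-0.36) became 0.17 and Wnt5b (-0.06) became 0.04 with the scanner's signals or the authors' table, and Wnt5b became 0.08 with quantile scaling and spanned -0.15 to 0.01. Wnt2 (0.03) became -0.25 with the replicate block and -0.05 without the thyroid-rich arrays, and spanned -0.24 to 0.29. For p63KO/Villin-Cdx2 minus WT, Wnt3a (-0.33) became 0.34 and Wnt5b (0.02) became -0.13 with the scanner's signals or the authors' table. Wnt5b became -0.10 as a mean of probes, -0.09 with weights and -0.12 in the sample channel, and spanned -0.08 to 0.17. Wnt2 (0.20) became -0.04 with weights and -0.21 without the thyroid-rich arrays, and spanned -0.15 to 0.46. The cause of these changes was not tested. Precision is limited by 2 to 4 arrays per genotype and, for Wnt7a and Wnt3a, by signal close to background.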
